A study of Mus musculus with 4 samples.

Results

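The fibrillar collagens are the collagens that assemble into the banded fibrils of the extracellular matrix. The 10 genes described here were chosen as members of this family by name, and the rule uses no measured value, although earlier results of these data were known when the family was picked: Col1a1, Col1a2, Col2a1, Col3a1, Col5a1, Col5a2, Col5a3, Col11a1, Col11a2 and Col24a1. They are 10 of 20711 protein-coding genes and account for 26 of 63759 transcripts in the table. Of the 10 genes, 7 reached 1 RPKM in at least 1 library and 3 did not, which were Col2a1, Col11a2 and Col24a1. RPKM scales the reads on a transcript by its length in kilobases and by how many reads of that library were mapped.

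RNA-seq was performed with total RNA of immortalized mouse embryonic fibroblasts (MEF), cells grown from the trunk of C57BL/6 embryos at embryonic day 15.5 and immortalized with SV40. The cells were wild type (Hmga2+/+) or carried the knockout of Hmga2 (Hmga2-/-), the gene of a small chromatin protein that binds AT-rich DNA. Cells of both genotypes were starved in medium with 1% FCS and then received water (Ctrl) or 10 ng/ml TGFB1 for 24 h. Each of the 4 combinations of genotype and treatment has 1 library, so every difference below is one between single libraries. No p-value is given, and a difference between the genotypes cannot be told apart from a difference between the 2 immortalized cultures. How many embryos each culture came from is not given in the sources used here. In bulk RNA, fewer cells that make a transcript and less of that transcript per cell cannot be told apart.

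Collagens consist of chains in which glycine recurs in each Gly-X-Y triplet, so that chains can wind around each other as a helix. Type I collagen is built from the products of Col1a1 and Col1a2, type III from Col3a1 alone, type V from Col5a1, Col5a2 and in some tissues Col5a3, type XI from Col11a1, Col11a2 and a product of Col2a1, and type II from Col2a1. Types I and III form the bulk of fibrils in loose connective tissue, types V and XI sit within fibrils and limit their diameter, and type II is the collagen of cartilage. TGFB1 is a cytokine that is widely used to induce matrix production in fibroblasts, and its treatment is known to raise many matrix genes.

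The repeat that defines the family is encoded as GGN, the codons of glycine, at the start of each triplet of codons. The GENCODE vM21 transcripts of the 10 genes were searched for the longest uninterrupted run of such triplets. In 9 genes the run held between 337 triplets (Col5a3) and 344 triplets (Col3a1). Col24a1, a gene of type XXIV collagen, whose helix is known to be interrupted, had 216 triplets in its longest run. The first 60 bases of the run are shown for the main genes of types I, III and V and for Col24a1, 5′ to 3′, with the glycine codons in capitals, since this repeat is what the members share.
Col1a1: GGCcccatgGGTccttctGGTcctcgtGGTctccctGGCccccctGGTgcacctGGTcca
Col3a1: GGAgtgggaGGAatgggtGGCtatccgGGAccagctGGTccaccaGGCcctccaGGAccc
Col5a1: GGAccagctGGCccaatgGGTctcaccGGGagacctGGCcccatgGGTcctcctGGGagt
Col24a1: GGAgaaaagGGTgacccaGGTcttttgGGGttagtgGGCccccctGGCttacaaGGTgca
GGT was the glycine codon in 55.9% of the triplets of Col1a1, 41.3% of those of Col3a1, 28.1% of those of Col5a1 and 23.1% of those of Col24a1. The run made up between 27.2% of the transcript (Col24a1) and 62.8% (Col2a1).

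Low RPKM in the table are whole multiples of 1 read, which gave between 56140000 and 57300000 mapped reads per library. On a transcript of 1 kilobase, 3 reads correspond to between 0.0524 and 0.0534 RPKM. Intervals given below are 95% counting intervals and cover counting error only, not the variation between cultures. Hmga2 had 14.8 RPKM in Hmga2+/+ Ctrl and 40.7 RPKM in Hmga2+/+ TGFB1 and was listed at 0 in both Hmga2-/- libraries, with 0 reads. Among genes known to respond to TGFB1, Smad7 went from 6.40 to 10.6 RPKM in Hmga2+/+ MEF and from 6.67 to 14.6 RPKM in Hmga2-/- MEF. Ctgf was at 13.2 and 173 RPKM in Hmga2+/+ Ctrl and TGFB1 and at 24.9 and 359 RPKM in the Hmga2-/- libraries, and Acta2 was at 15.9, 58.3, 48.2 and 165 RPKM in the same order. All 7 fibroblast markers examined reached 1 RPKM, with a summed level between 1136 RPKM in Hmga2+/+ Ctrl and 1679 RPKM in Hmga2-/- Ctrl. Most of this sum was Vim, at 958 and 1497 RPKM in these libraries. The median log2 difference of the 7 markers, Hmga2-/- over Hmga2+/+ in Ctrl, was -0.20. None of 5 epithelial and none of 4 skeletal muscle markers reached 1 RPKM, and Myod1, Myog and Myf5 were listed at 0 in all 4 libraries. Of the remaining lists, 5 of 7 chondrocyte, 1 of 6 osteoblast, 2 of 4 endothelial and 1 of 4 macrophage markers reached 1 RPKM. Their summed levels over the 4 libraries were 14.4 to 24.1 RPKM for chondrocyte, 4.20 to 7.59 RPKM for osteoblast, 3.89 to 8.14 RPKM for endothelial and 1.29 to 1.66 RPKM for macrophage markers. The summed level of the epithelial markers lay between 0.411 and 1.04 RPKM and that of the skeletal muscle markers at no more than 0.052 RPKM.

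The levels of the 10 genes fell into 2 ranges. The 7 genes of types I, III, V and Col11a1 lay between 6.18 and 363 RPKM in all libraries, and the other 3 genes reached at most 0.643 RPKM. In Hmga2+/+ Ctrl the order from high to low was Col1a1, Col3a1, Col1a2, Col5a2, Col5a1, Col11a1, Col5a3, Col2a1, Col11a2 and Col24a1. Col1a1 held rank 19 among all 20711 protein-coding genes in that library, Col3a1 rank 31 and Col1a2 rank 41. In Hmga2-/- Ctrl the order of these 3 genes was the same, at ranks 35, 45 and 65. With TGFB1 the order changed in the upper part. Col5a2 stood at rank 71 and Col3a1 at rank 88 in Hmga2+/+ MEF, and Col5a2 at rank 63 and Col3a1 at rank 143 in Hmga2-/- MEF. Col1a2 was at rank 66 in Hmga2+/+ TGFB1 and at rank 90 in Hmga2-/- TGFB1, so Col5a2 was above it in the latter only. At the lower end of the order, Col11a2 and Col24a1 of Hmga2+/+ Ctrl were not set apart by counting, with 77 and 76 reads.

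**Figure D1:**
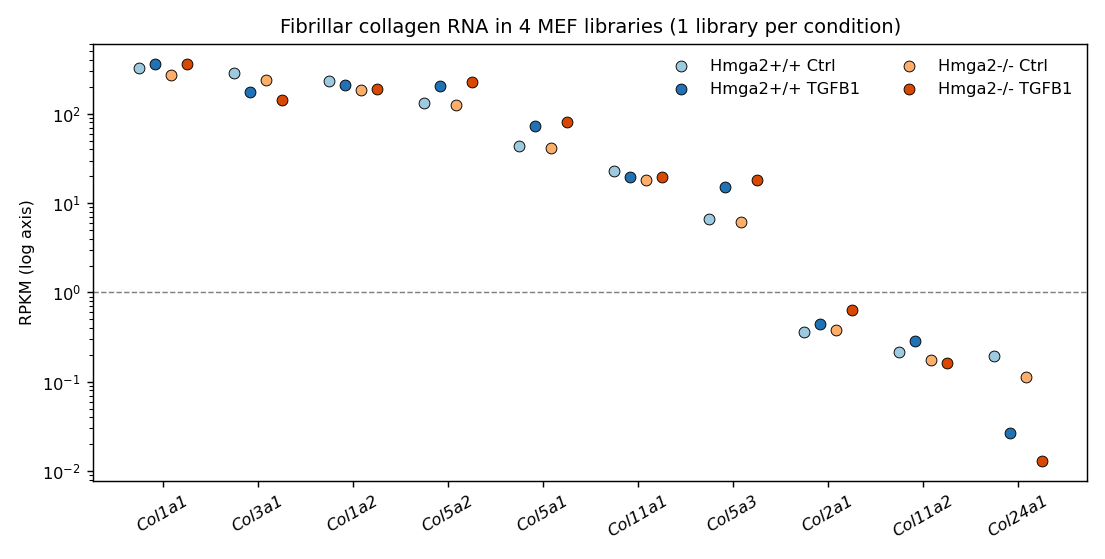
RPKM of the 10 fibrillar collagen genes on a log axis, 1 point for each of the 4 libraries, with genes ordered from high to low and a dashed line at 1 RPKM. The 7 genes on the left lie above 6 RPKM in every library and the 3 on the right below 1 RPKM, and Col3a1 lies lower in both TGFB1 libraries while Col5a1, Col5a2 and Col5a3 lie higher.

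TGFB1 treatment was compared with water within each genotype, which asks how the fibrillar collagen genes respond to the cytokine. In both genotypes the 3 genes of type V collagen rose past 1.5-fold, Col3a1 fell past 1.5-fold, and Col1a1, Col1a2 and Col11a1 stayed within 1.5-fold. In Hmga2+/+ MEF this is 3 of 7 genes higher and 1 of 7 lower, where 11.5% of the 10679 protein-coding genes of at least 1 RPKM were higher by 1.5-fold and 16.6% lower. In Hmga2-/- MEF it is again 3 of 7 higher and 1 of 7 lower, where 13.1% of all genes were higher and 15.0% lower. The median log2 change of the 7 genes was 0.16 in Hmga2+/+ MEF and 0.41 in Hmga2-/- MEF, and that of all genes was -0.05 and 0.01. The 7 genes are those that passed the limit of 1 RPKM, and the counts describe these libraries only.

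**Figure D2:**
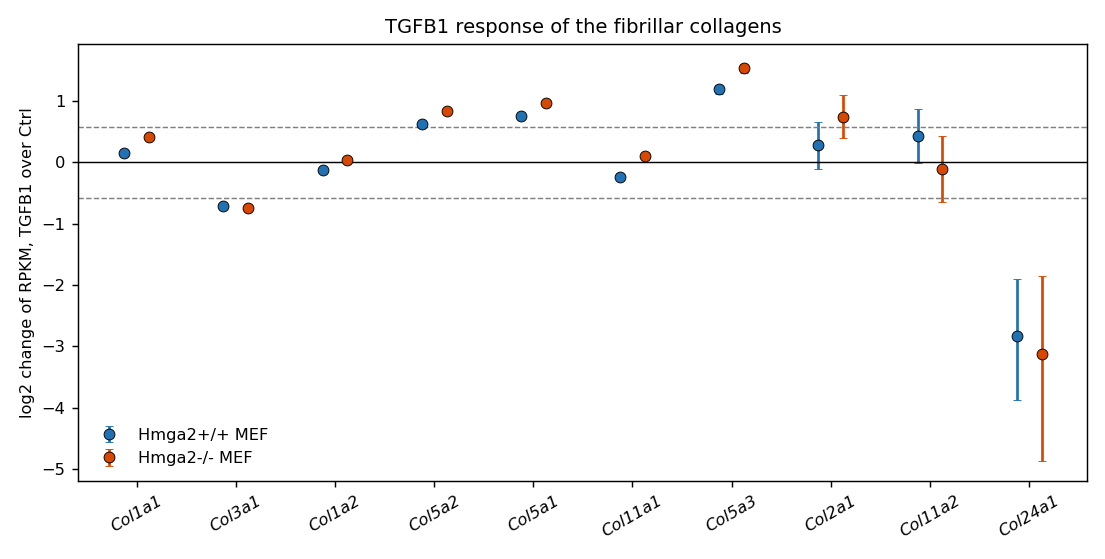
The log2 change of RPKM from Ctrl to TGFB1 for the 10 genes in Hmga2+/+ (blue) and Hmga2-/- (orange) MEF, with bars for the 95% counting interval, hidden by the point for genes of high level, and dashed lines at 1.5-fold. The 3 type V genes lie above the upper line, Col3a1 and Col24a1 lie below the lower line in both genotypes, and Col2a1 lies above the upper line in Hmga2-/- MEF only, at under 1 RPKM.

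Col1a1 and Col1a2 encode the chains of type I collagen, the main collagen of skin, tendon and bone. Col1a1 (chr11:94936224-94953042 of mm10, + strand, 5829 bases of exons) was at 325 RPKM in Hmga2+/+ Ctrl, 363 RPKM in Hmga2+/+ TGFB1, 272 RPKM in Hmga2-/- Ctrl and 363 RPKM in Hmga2-/- TGFB1. Its log2 change with TGFB1 was 0.16 in Hmga2+/+ MEF (interval 0.15 to 0.17) and 0.41 in Hmga2-/- MEF (interval 0.40 to 0.43). The Hmga2-/- Ctrl library was the low one, and the 2 TGFB1 libraries were level. Col1a2 (chr6:4505618-4541543, + strand, 5119 bases) was at 231, 212, 185 and 190 RPKM in the same order of libraries. Its log2 change was -0.12 in Hmga2+/+ MEF (interval -0.14 to -0.11) and 0.03 in Hmga2-/- MEF (interval 0.02 to 0.05), so that both Hmga2+/+ libraries were above both Hmga2-/- libraries. The sign of these small changes depends on the transcript, since the 3 transcripts of Col1a2 gave log2 changes between -0.18 and 0.04 in Hmga2+/+ MEF and between -0.11 and 0.06 in Hmga2-/- MEF. The 2 genes of type I collagen thus did not keep 1 ratio: Col1a1 stood at 1.41 times the RPKM of Col1a2 in Hmga2+/+ Ctrl and at 1.71 times in Hmga2+/+ TGFB1. In Hmga2-/- MEF the ratio was 1.47 (interval 1.45 to 1.48) in Ctrl and 1.91 (interval 1.89 to 1.93) in TGFB1.

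Col3a1 encodes the chain of type III collagen, which forms fine fibrils in skin, vessels and young connective tissue, often together with type I. It lies on chr1:45311538-45349706 (+ strand, 5463 bases of exons) and was at 287 RPKM in Hmga2+/+ Ctrl, 176 RPKM in Hmga2+/+ TGFB1, 237 RPKM in Hmga2-/- Ctrl and 141 RPKM in Hmga2-/- TGFB1. The 2 Ctrl libraries were thus above the 2 TGFB1 libraries. With TGFB1 the level was 1.63-fold lower in Hmga2+/+ MEF (log2 change -0.70, interval -0.72 to -0.69) and 1.68-fold lower in Hmga2-/- MEF (log2 change -0.75, interval -0.76 to -0.73). The counts behind these values were 87997 and 55144 reads in Hmga2+/+ MEF and 73247 and 43894 reads in Hmga2-/- MEF. The 2 transcripts of the gene in the table, which share reads, gave log2 changes between -0.70 and -0.57 in Hmga2+/+ MEF and between -0.75 and -0.73 in Hmga2-/- MEF. The -0.57 of the shorter transcript is within 1.5-fold (a log2 change of 0.585), so in Hmga2+/+ MEF passing this limit depends on the transcript.

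Col5a1, Col5a2 and Col5a3 encode the chains of type V collagen, a minor fibril component that is known to be needed for fibrils to start. Col5a2 lies on the - strand of chromosome 1 (chr1:45374331-45503282, 6508 bases of exons), with its 3′ end facing that of Col3a1 across 24624 bases. Col5a2 was at 133 RPKM in Hmga2+/+ Ctrl, 204 RPKM in Hmga2+/+ TGFB1, 126 RPKM in Hmga2-/- Ctrl and 226 RPKM in Hmga2-/- TGFB1. With TGFB1 it was 1.54-fold higher in Hmga2+/+ MEF (log2 change 0.62, interval 0.60 to 0.64) and 1.80-fold higher in Hmga2-/- MEF (log2 change 0.85, interval 0.83 to 0.86). The 2 neighbouring genes therefore moved in opposite directions in both genotypes. The RPKM of Col5a2 was 0.462 times that of Col3a1 in Hmga2+/+ Ctrl and 1.16 times in Hmga2+/+ TGFB1, and 0.532 and 1.60 times in the Hmga2-/- libraries.

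Col5a1 (chr2:27886425-28039510, + strand, 8271 bases of exons), whose product occurs in most type V molecules, was at 43.3, 73.0, 41.2 and 81.1 RPKM in Hmga2+/+ Ctrl, Hmga2+/+ TGFB1, Hmga2-/- Ctrl and Hmga2-/- TGFB1. It was 1.69-fold higher with TGFB1 in Hmga2+/+ MEF (log2 change 0.75, interval 0.73 to 0.78) and 1.97-fold higher in Hmga2-/- MEF (log2 change 0.98, interval 0.95 to 1.00). Col5a3 (chr9:20770057-20815067, - strand, 5979 bases) was the lowest of the 3 genes, at 6.60, 15.1, 6.18 and 17.9 RPKM in the same order. It had the largest change of the 3, being 2.29-fold higher in Hmga2+/+ MEF (log2 change 1.19, interval 1.12 to 1.27) and 2.90-fold higher in Hmga2-/- MEF (log2 change 1.54, interval 1.47 to 1.61). For each of the 3 genes both TGFB1 libraries were above both Ctrl libraries, and the Hmga2-/- TGFB1 library was the highest. The transcripts of each gene in the table, which overlap and can share reads, changed alike. In Hmga2+/+ MEF the log2 changes lay between 0.74 and 0.75 for 2 transcripts of Col5a1, between 0.61 and 0.62 for 2 of Col5a2 and between 1.08 and 1.19 for 3 of Col5a3. In Hmga2-/- MEF they lay between 0.96 and 0.98, between 0.79 and 0.85 and between 1.45 and 1.55.

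The stretch of 250 bases before the start is shown for Col3a1, which fell with TGFB1, and for Col5a1 and Col5a3, which rose. The sequences are from RefSeq (GRCm38.p6), 5′ to 3′ on the strand of the gene, at chr1:45311288-45311537 (+) for Col3a1, chr2:27886175-27886424 (+) for Col5a1 and chr9:20815068-20815317 (-) for Col5a3. Capitals mark matches, on either strand, to TATAAA (the core of a TATA box), CCAAT (the box bound by NF-Y), GGGCGG (a GC box bound by Sp1) and CAGAC (a motif bound by Smad proteins).
Col3a1: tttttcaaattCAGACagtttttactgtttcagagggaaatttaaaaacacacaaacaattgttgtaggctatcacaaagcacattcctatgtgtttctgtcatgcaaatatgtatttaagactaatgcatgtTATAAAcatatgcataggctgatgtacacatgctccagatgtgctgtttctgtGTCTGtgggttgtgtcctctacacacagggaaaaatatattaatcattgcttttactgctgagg
Col5a1: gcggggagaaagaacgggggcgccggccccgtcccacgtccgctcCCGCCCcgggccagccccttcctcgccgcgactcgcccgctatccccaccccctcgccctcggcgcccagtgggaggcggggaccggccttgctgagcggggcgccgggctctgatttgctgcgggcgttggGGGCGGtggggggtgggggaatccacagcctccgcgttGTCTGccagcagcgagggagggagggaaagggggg
Col5a3: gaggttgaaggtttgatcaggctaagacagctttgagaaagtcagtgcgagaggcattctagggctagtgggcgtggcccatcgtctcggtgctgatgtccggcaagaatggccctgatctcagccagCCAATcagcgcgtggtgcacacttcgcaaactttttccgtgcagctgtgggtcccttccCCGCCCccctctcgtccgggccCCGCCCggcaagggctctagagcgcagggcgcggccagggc
The Col3a1 stretch had a GC content of 35.2%, that of Col5a1 76.4% and that of Col5a3 62.8%. Col3a1 held TATAAA at position -117 and CAGAC at positions -239 and -64, the second on the opposite strand, counted from the start to the leftmost base of the match. Col5a1 held GGGCGG at -205 and -73 and CAGAC at -35, of which the match at -73 was on the strand of the gene. Col5a3 held CCAAT at -122 on the strand of the gene and GGGCGG at -63 and -41 on the opposite strand. None of the 4 motifs contains another. Promoters were matched for 7 of the 10 genes and were not for Col1a1, Col2a1 and Col5a2. GGGCGG was found in 5 of these 7, against 32.7% of 32851 promoters of the same length, and CAGAC in 4 of 7, against 42.2%. CCAAT was found in 3 of 7, against 33.8%, and TATAAA in 2 of 7, against 12.4%. Of the members not shown, Col24a1 fell with TGFB1 at under 1 RPKM, and its stretch had a GC content of 58% and 0 matches to GGGCGG. Col1a2 and Col11a1, which stayed within 1.5-fold, had 62% and 62.4% and 2 matches each. Col11a2, under 1 RPKM, had 57.6% and 2 matches. A match is a description of the sequence and was not tested for binding. A relation of GC content or motifs to the response was not tested.

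Col11a1 encodes a chain of type XI collagen, which is known from cartilage and also occurs in mixed molecules with type V chains. Col11a1 (chr3:114030540-114220756, + strand, 7572 bases of exons) was at 22.8 RPKM in Hmga2+/+ Ctrl, 19.4 RPKM in Hmga2+/+ TGFB1, 18.2 RPKM in Hmga2-/- Ctrl and 19.6 RPKM in Hmga2-/- TGFB1. The Hmga2+/+ Ctrl library was the highest and the other 3 lay close to each other. The log2 change with TGFB1 was -0.23 in Hmga2+/+ MEF (interval -0.27 to -0.19) and 0.11 in Hmga2-/- MEF (interval 0.07 to 0.15). All 4 transcripts of Col11a1 shared these signs, with log2 changes between -0.45 and -0.14 in Hmga2+/+ MEF and between 0.11 and 0.22 in Hmga2-/- MEF. The longest transcript spans the others, so they can share reads with it. Relative to Col5a1, the RPKM of Col11a1 was 0.526 in Hmga2+/+ Ctrl and 0.266 in Hmga2+/+ TGFB1, and 0.441 and 0.242 in the Hmga2-/- libraries. These values depend on the transcript that is taken, since with the transcript of the highest RPKM they were 0.922, 0.432, 0.754 and 0.417, and the fall with TGFB1 was seen with either.

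The other 3 genes were low, and their values rest on few reads. Col2a1 (chr15:97975602-98004724, - strand, 5026 bases of exons) was at 0.361, 0.438, 0.383 and 0.643 RPKM in Hmga2+/+ Ctrl, Hmga2+/+ TGFB1, Hmga2-/- Ctrl and Hmga2-/- TGFB1, from 102, 126, 109 and 184 reads. Its log2 change with TGFB1 was 0.28 in Hmga2+/+ MEF, with an interval of -0.11 to 0.67 that includes 0, and 0.75 in Hmga2-/- MEF, with an interval of 0.40 to 1.10. The Hmga2-/- TGFB1 library was the highest for Col2a1 and also for the summed chondrocyte markers, at 14.4, 15.6, 14.4 and 24.1 RPKM, of which Col10a1 made up 15.1 RPKM in that library. Without Col10a1, a sum added after its values were seen, it was 6.12, 9.21, 3.77 and 8.95 RPKM, and Hmga2+/+ TGFB1 was the highest. Acan, the gene of the cartilage proteoglycan aggrecan, was at 0.039, 1.15, 0.024 and 0.609 RPKM, and Hapln1, which links it to hyaluronan, was lowest in Hmga2-/- TGFB1, at 2.88, 2.74, 1.85 and 1.69 RPKM. Matn3, a further marker of the list, was highest in Hmga2-/- TGFB1, at 0.202, 0.89, 0.212 and 1.69 RPKM. Sox9, which is known to drive Col2a1 in cartilage, was at 3.0, 4.43, 1.68 and 4.96 RPKM, while the cartilage genes Matn1 and Col9a1 were at or below 0.009 RPKM. The part of these markers in the value of Col2a1 was not tested.

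Col11a2 (chr17:34039138-34066684, + strand, 6412 bases of exons), the gene of a second chain of type XI collagen, was at 0.214, 0.289, 0.174 and 0.162 RPKM, from 77, 106, 63 and 59 reads. Its log2 change with TGFB1 was 0.43 in Hmga2+/+ MEF (interval -0.01 to 0.87) and -0.10 in Hmga2-/- MEF (interval -0.64 to 0.43), so that no response was detectable at this depth. Col24a1 (chr3:145292472-145552011, + strand, 7024 bases), the gene with the short run of triplets shown above, was at 0.193, 0.027, 0.113 and 0.013 RPKM. These are 76 and 11 reads in the Hmga2+/+ libraries and 45 and 5 reads in the Hmga2-/- libraries. Both TGFB1 libraries were below both Ctrl libraries, 7.15-fold in Hmga2+/+ MEF (log2 change -2.84, interval -3.88 to -1.90) and 8.69-fold in Hmga2-/- MEF (log2 change -3.12, interval -4.87 to -1.85). The log2 change is larger than that of Col3a1, but Col24a1 was under 1 RPKM in all 4 libraries and is therefore not among the counts given above.

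The make-up of the fibrillar collagen RNA was then described as the share of each gene in the summed RPKM of the 10 genes. The sum changed little with TGFB1 in Hmga2+/+ MEF, from 1049 to 1063 RPKM, and went from 887 to 1040 RPKM in Hmga2-/- MEF. The reads of the 10 genes were between 0.517% (Hmga2-/- Ctrl) and 0.633% (Hmga2+/+ TGFB1) of all mapped reads. The 2 genes of type I collagen together held a near constant share of 53.0%, 54.1%, 51.6% and 53.2% in Hmga2+/+ Ctrl, Hmga2+/+ TGFB1, Hmga2-/- Ctrl and Hmga2-/- TGFB1. The share of Col3a1 was 27.4% and 16.6% in the Hmga2+/+ libraries and 26.7% and 13.6% in the Hmga2-/- libraries. The share of the 3 type V genes went the other way, from 17.4% to 27.5% and from 19.5% to 31.3%. Within the 2 Ctrl libraries Col3a1 was thus the larger part and within the 2 TGFB1 libraries type V was. Col5a2 alone made up 19.2% in Hmga2+/+ TGFB1 and 21.8% in Hmga2-/- TGFB1, more than Col3a1 in the same library. The shares add up to a whole, so a rise of 1 gene lowers the share of others, and they are shares of RNA, not of protein.

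**Figure D3:**
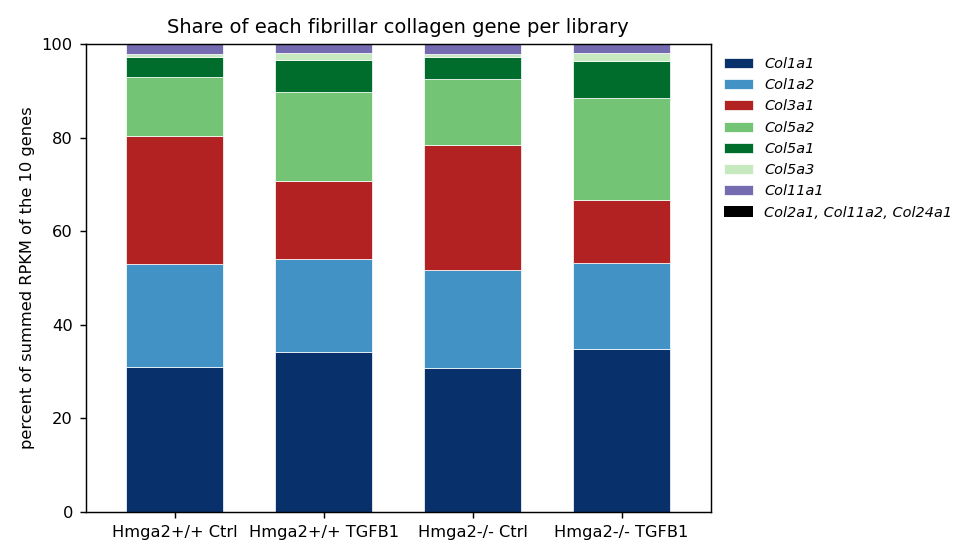
Percent of the summed RPKM of the 10 fibrillar collagen genes held by each gene, with 1 bar for each of the 4 libraries. Col3a1 (red) shrinks from 27.4% to 16.6% in Hmga2+/+ MEF and from 26.7% to 13.6% in Hmga2-/- MEF, the type V genes (green) grow, and Col2a1, Col11a2 and Col24a1 are too low to be seen.

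Ratios between genes of 1 library do not depend on its depth. Col3a1 stood at 0.882 times Col1a1 in Hmga2+/+ Ctrl (interval 0.874 to 0.890) and at 0.485 times in Hmga2+/+ TGFB1 (interval 0.481 to 0.490). In Hmga2-/- MEF the ratio was 0.869 (interval 0.861 to 0.878) in Ctrl and 0.389 (interval 0.385 to 0.393) in TGFB1, so the 2 Ctrl libraries lay close to each other and the Hmga2-/- TGFB1 library was the lowest. The ratio of Col5a1 to Col5a2 changed least, from 0.326 to 0.358 in Hmga2+/+ MEF and from 0.327 to 0.358 in Hmga2-/- MEF, with the same value in both genotypes within the counting intervals. Col5a3 relative to Col5a1 was 0.153 and 0.207 in the Hmga2+/+ libraries and 0.150 and 0.221 in the Hmga2-/- libraries. The intervals of this last ratio overlapped between the Ctrl libraries and did not between the TGFB1 libraries, at 0.201 to 0.213 in Hmga2+/+ MEF and 0.215 to 0.227 in Hmga2-/- MEF.

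**Figure D4:**
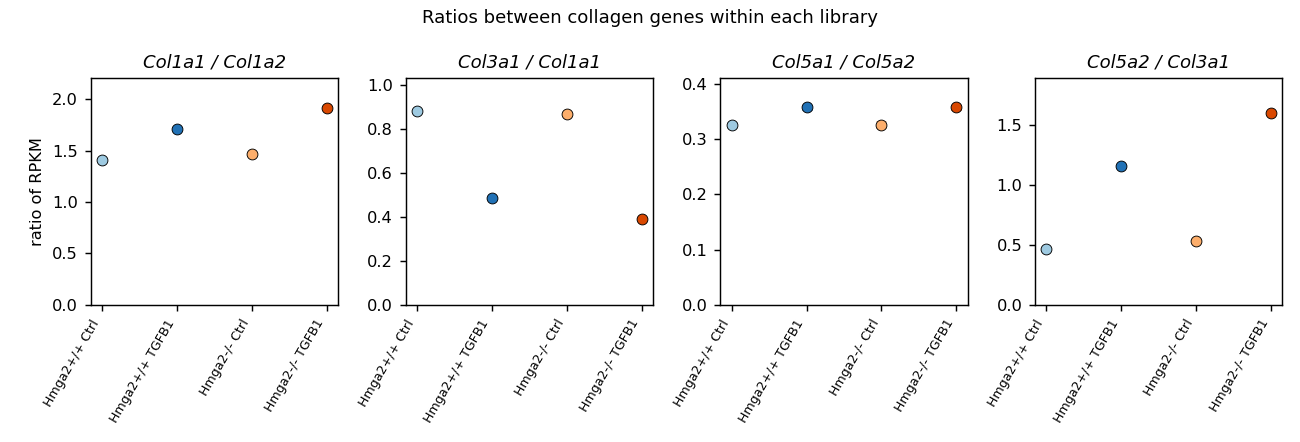
Ratio of RPKM between pairs of fibrillar collagen genes in each of the 4 libraries, with each axis starting at 0 and 95% counting intervals that are smaller than the points. Col1a1 over Col1a2 and Col5a2 over Col3a1 are higher in both TGFB1 libraries, Col3a1 over Col1a1 is lower in both, and Col5a1 over Col5a2 lies between 0.326 and 0.358 throughout.

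Hmga2-/- MEF were compared with Hmga2+/+ MEF under each treatment, which asks whether the level of these genes differs without Hmga2. None of the 7 genes differed by 1.5-fold. In Ctrl 0 were higher and 0 lower, where 2.28% of all genes were higher and 1.65% lower in Hmga2-/- MEF, and in TGFB1 0 were higher and 0 lower, where 3.03% were higher and 1.98% lower. In Ctrl all 7 genes were below the Hmga2+/+ library, with a median log2 difference of -0.26 against -0.02 for all genes. The share of all genes below 0 was not counted. The 7 values form 2 groups: Col1a1 at -0.26, Col1a2 at -0.31, Col3a1 at -0.28 and Col11a1 at -0.33 on the one hand, and Col5a1 at -0.07, Col5a2 at -0.07 and Col5a3 at -0.10 on the other. These are log2 differences with counting intervals no wider than 0.02 to either side for types I and III. In the Ctrl libraries, 7.44% of all genes had a lower log2 difference than Col1a2 and 6.81% a lower one than Col11a1. For Col1a1 and Col3a1 this share was 11.0% and 9.47%. For Col5a1, Col5a2 and Col5a3 it was 37.1%, 36.3% and 31.6%.

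With TGFB1 the genotypes differed in another way. The type V genes were higher in Hmga2-/- MEF, by a log2 difference of 0.15 for Col5a1 (interval 0.13 to 0.17), 0.15 for Col5a2 (interval 0.14 to 0.17) and 0.25 for Col5a3 (interval 0.19 to 0.30). Col3a1 was lower, at -0.32 (interval -0.34 to -0.30), and Col1a2 was at -0.16 (interval -0.17 to -0.14). For Col1a1 and Col11a1 the difference was 0.00 (interval -0.01 to 0.01) and 0.01 (interval -0.03 to 0.06), both with 0 inside the interval. The median of the 7 genes was 0.01 and that of all genes was 0.04. Among the low genes, Col11a2 had 106 reads in Hmga2+/+ TGFB1 and 59 reads in Hmga2-/- TGFB1, a log2 difference of -0.84 (interval -1.32 to -0.36), and Col24a1 had 76 and 45 reads in the Ctrl libraries, a log2 difference of -0.77 (interval -1.33 to -0.22).

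The response to TGFB1 was then compared between the genotypes, as the log2 change in Hmga2-/- MEF minus that in Hmga2+/+ MEF. Of the 7 genes 0 had a response higher and 0 a response lower by 1.5-fold in Hmga2-/- MEF, where 2.08% of all genes were higher and 1.5% lower. For 6 of the 7 genes the value was above 0, and the share of all genes above 0 was not counted. It was 0.16 for Col1a2, 0.22 for Col5a1, 0.23 for Col5a2, 0.26 for Col1a1, 0.34 for Col5a3 and 0.34 for Col11a1. Col3a1 was the exception at -0.04 (interval -0.07 to -0.02). Of all genes, 70.6%, 80.2%, 80.5%, 83.9%, 90.9%, 90.7% and 32.9% had a lower value than these 7, in the same order. The transcripts of Col1a2 gave values from -0.15 to 0.24, so its sign depends on the transcript. The median of the 7 was 0.23 and that of all genes 0.05. When libraries were rescaled by the median ratio of all genes, the median of all genes became 0.00 and the values of the members moved by at most 0.04, and the count over all genes went from 222 higher and 160 lower to 177 higher and 197 lower. For the type V genes the rise with TGFB1 was thus present in both genotypes and larger, by less than 1.5-fold, in the Hmga2-/- libraries. A part of Hmga2 in this was not tested. The comparisons are not independent of each other, since each library enters both a comparison of treatments and one of genotypes.

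Genes that followed the members most closely over the 4 libraries were sought among 10672 genes that are not members, by the largest difference in log2 RPKM after each gene's mean was removed. For Col5a1 the closest was Plod3, a lysyl hydroxylase that modifies collagen chains, at 13.1, 22.0, 13.0 and 25.6 RPKM in Hmga2+/+ Ctrl, Hmga2+/+ TGFB1, Hmga2-/- Ctrl and Hmga2-/- TGFB1. Its pattern differed from that of Col5a1 by at most 0.03 on the log2 scale in any library, followed by Eif5 and Trmt10c, which differed by at most 0.03 and 0.04. For Col1a1 the closest were Tmcc2, Lonp1 and Pdcd2l, at most 0.01, 0.02 and 0.02 apart, and for Col3a1 Zfp950, Plekha4 and Osgin1, at most 0.03, 0.04 and 0.04 apart. The likeness rests on 4 libraries, and Zfp950 and Osgin1 were near 1 RPKM.

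Collagen chains are modified, folded, cut and cross-linked by a known set of proteins, and 28 of 31 such genes reached 1 RPKM. In Hmga2+/+ MEF 9 of these 28 were higher and 5 lower by 1.5-fold with TGFB1, and in Hmga2-/- MEF 12 were higher and 3 lower, with median log2 changes of 0.13 and 0.50. Over all genes the share higher and lower was 11.5% and 16.6% in Hmga2+/+ MEF and 13.1% and 15.0% in Hmga2-/- MEF, with medians of -0.05 and 0.01, so the count of lower genes in Hmga2+/+ MEF was near the share of all genes. Lox, the lysyl oxidase that cross-links fibrils, was the most abundant of the genes that rose, at 155 RPKM in Hmga2+/+ Ctrl and 547 RPKM in Hmga2+/+ TGFB1, and at 146 and 726 RPKM in the Hmga2-/- libraries. Pcolce2, an enhancer of the removal of the C-terminal propeptide, went from 0.453 to 2.75 RPKM in Hmga2+/+ MEF, a log2 change of 2.60. The largest falls were those of Adamts2, from 3.86 to 1.34 RPKM, and Adamts3, from 4.12 to 1.56 RPKM, both enzymes that remove the N-terminal propeptide. Adamts2 and Adamts3 also fell in Hmga2-/- MEF, with log2 changes of -1.46 and -1.89. Genes with a response higher by 1.5-fold in Hmga2-/- MEF were 4 of the 28 and those with a lower one 0, against 2.08% and 1.5% of all genes. Between the genotypes 2 were higher and 2 lower in Ctrl, against 2.28% and 1.65% of all genes, and 2 were higher and 1 lower with TGFB1, against 3.03% and 1.98%.

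Other collagens, which form networks, filaments or anchoring fibrils, were listed as 34 genes, of which 14 reached 1 RPKM. With TGFB1 6 were higher and 2 lower in Hmga2+/+ MEF and 7 were higher and 2 lower in Hmga2-/- MEF, with medians of 0.38 and 0.62. All genes had medians of -0.05 and 0.01 and shares of 11.5% higher and 16.6% lower in Hmga2+/+ MEF and 13.1% and 15.0% in Hmga2-/- MEF, so that 2 of 14 lower was near the share of all genes. The largest rises in Hmga2+/+ MEF were those of Col7a1, the collagen of anchoring fibrils, from 0.201 to 2.11 RPKM, and of Col12a1, which binds to the surface of fibrils, from 36.7 to 83.3 RPKM. The largest falls were those of Col4a5, a basement membrane collagen, from 7.10 to 2.1 RPKM, and of Col6a1, a chain of beaded filaments, from 65.5 to 37.2 RPKM. The genotypes differed in 1 gene that was higher and 2 that were lower in Ctrl and in 3 higher and 0 lower with TGFB1, and 4 had a higher response and 0 a lower one in Hmga2-/- MEF. The shares of all genes in these 3 comparisons were 2.28% and 1.65%, 3.03% and 1.98%, and 2.08% and 1.5%. Col27a1, which also encodes a fibrillar collagen and was not among the 10 genes, was at 1.24, 1.39, 1.48 and 2.78 RPKM.

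Proteins that bind to fibrils and shape them were measured through 11 of 16 genes, and they went both ways. In each genotype 5 were higher and 5 lower with TGFB1, with median log2 changes of 0.35 and 0.50, where the share of all genes was 11.5% higher and 16.6% lower in Hmga2+/+ MEF and 13.1% and 15.0% in Hmga2-/- MEF. The rises were led by Fmod (fibromodulin), from 3.11 to 14.0 RPKM, and Thbs2 (thrombospondin), from 28.5 to 116 RPKM in Hmga2+/+ MEF. The falls were led by Ogn (osteoglycin), from 178 to 32.7 RPKM, and Lum (lumican), from 1.08 to 0.363 RPKM. In Hmga2-/- MEF 1 had a higher and 1 a lower response, and the genotypes differed in 0 higher and 2 lower in Ctrl and in 0 of either kind with TGFB1. For all genes these shares were 2.08% and 1.5% for the response, 2.28% and 1.65% in Ctrl and 3.03% and 1.98% with TGFB1.

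Among known regulators of collagen genes, 19 of 21 reached 1 RPKM, and with TGFB1 5 were higher and 1 lower in Hmga2+/+ MEF and 7 were higher and 2 lower in Hmga2-/- MEF. Their medians were 0.05 and 0.21. As 11.5% of all genes were higher and 16.6% lower in Hmga2+/+ MEF and 13.1% and 15.0% in Hmga2-/- MEF, the 2 of 19 that were lower in Hmga2-/- MEF were no more than the share of all genes. The largest rises were those of Skil, a feedback inhibitor of TGFB signalling, from 5.94 to 28.4 RPKM, and of Scx, a tendon transcription factor, from 6.19 to 15.0 RPKM in Hmga2+/+ MEF. The gene that fell in Hmga2+/+ MEF was Sox5, which acts with Sox9 in cartilage, from 1.12 to 0.732 RPKM. In Hmga2-/- MEF 2 had a higher and 1 a lower response, and the genotypes differed in 0 higher and 2 lower in Ctrl and in 1 higher and 2 lower with TGFB1, against the same shares of all genes as for the fibril-binding proteins. Of the collagen receptors 6 of 7 reached 1 RPKM, and in each genotype 3 were higher and 1 lower with TGFB1, with medians of 0.48 and 0.60. Here 1 of 6 lower was near the 16.6% and 15.0% of all genes that were lower, while 11.5% and 13.1% of all genes were higher. Itga2, an integrin subunit, went from 0.137 to 2.1 RPKM in Hmga2+/+ MEF, and Itga11, the subunit of the main fibrillar collagen integrin of fibroblasts, from 1.56 to 9.60 RPKM. Itga11 was the receptor with a higher response in Hmga2-/- MEF, where it went from 0.822 to 16.1 RPKM, and no receptor had a lower one. Itga1 was the receptor that fell, from 3.20 to 1.00 RPKM. For the response, 2.08% of all genes were higher and 1.5% lower in Hmga2-/- MEF. Between the genotypes 0 receptors were higher and 1 lower in Ctrl, where 2.28% of all genes were higher and 1.65% lower. With TGFB1 1 receptor was higher and 0 lower, where 3.03% of all genes were higher and 1.98% lower. With 6 genes in the list each of the counts between genotypes is at most 1 gene.

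**Figure D5:**
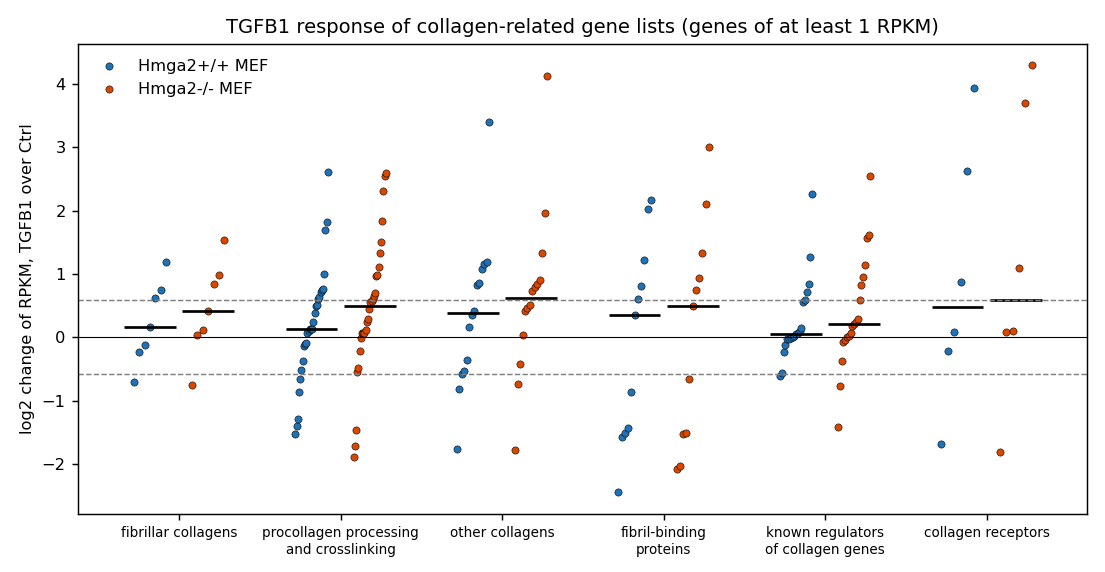
The log2 change of RPKM from Ctrl to TGFB1 for each gene of at least 1 RPKM in 6 lists, in Hmga2+/+ (blue) and Hmga2-/- (orange) MEF, with horizontal bars for the median of a list and dashed lines at 1.5-fold. The fibrillar collagens span -0.75 to 1.54, and genes of each of the other 5 lists reach beyond 2 in both genotypes, which none of the fibrillar collagens does.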

How the data were processed

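Total RNA of the 4 MEF cultures was sequenced with a stranded kit. Per the labels and the study's methods, the authors checked reads with FastQC and trimmed them with Trimmomatic; HISAT2 2.1.0 placed them on mm10, and they quantified UCSC known genes on the annotated strand with HOMER. The authors deposited RPKM, scaled by transcript length and by mapped reads, with 1 column per condition. The methods name genes as the counted feature and the header of the table names exons. Whether duplicates were pooled, and how reads matching several places were counted, is not given in the sources used here. The deposited transcript length, in bases, was also used.

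Mapped reads were derived as the depth that turns low RPKM into whole reads. Of 1657 to 1688 values per library (under 100 reads, transcripts under 600 bases), 100% lay within 0.1 of a whole read, between 56140000 and 57300000 mapped reads. Transcripts were named by the gene of GENCODE vM21, on their own strand, that covered at least 50% of their span (57708 of 63759). For each gene the transcript with the longest gene body was used. Values of 0 RPKM were set to 0.001. A gene counted as higher or lower at 1.5-fold, among genes that reached 1 RPKM in any library. The 95% intervals are exact intervals for the ratio of 2 counts and, for differences of responses, normal intervals of the log ratio. With 1 library per condition no test was run. The members, gene lists, markers and motifs were chosen with earlier results of these data known. Examples from a list are the largest changes on TGFB1 in Hmga2+/+ MEF, up to 2 in each direction. Col27a1, Col10a1, Acan, Hapln1, Matn1, Matn3 and Col9a1 were named after their values were seen. The steps were tested on simulated data. Alternatives used pseudocounts of 1 and 0.1, no filter, a 2-fold threshold, median ratio scaling and the transcript of the highest RPKM. Python 3.11.15, numpy 2.4.6, pandas 2.3.3, scipy 1.17.1 and matplotlib 3.10.9 were used.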

Additional observations from a re-analysis of the deposited data

Results flagged for a closer look

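For 3 of the 10 genes the library with TGFB1 lay above Ctrl in one genotype and below it in the other. With 1 library per condition the difference was not tested. The share of all genes that did so was not counted, so the 3 are not a result about the family. Of the 3, Col11a2 was under 1 RPKM in every library. The response of Col1a2 was -0.12 in Hmga2+/+ and 0.03 in Hmga2-/- MEF, a log2 difference of 0.16 (counting interval 0.13 to 0.18). Over the 3 transcripts of Col1a2 this difference ranged from -0.15 to 0.24, so its sign depends on the transcript. That of Col11a1 was -0.23 and 0.11, a difference of 0.34 (interval 0.28 to 0.40). That of Col11a2 was 0.43 and -0.10, a difference of -0.54, with an interval of -1.20 to 0.13 that includes 0.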

How the results depend on the processing

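No paired analysis was possible because each condition has a single library, and for the same reason no library could be left out. Without the filter on low RPKM, 2 members were lower with TGFB1 in Hmga2+/+ and 2 in Hmga2-/- MEF, 4 were higher in Hmga2-/- MEF (Col2a1 in addition), and in Hmga2-/- against Hmga2+/+ MEF 1 was lower in Ctrl and 2 with TGFB1. At a 2-fold threshold 1 member was higher and 0 lower with TGFB1 in each genotype. The shares of all genes given above are for 1.5-fold among genes of at least 1 RPKM. They cannot be set against the counts without the filter or at 2-fold. The counts at 1.5-fold with the filter were the same with either pseudocount, median ratio scaling and the transcript of the highest RPKM. Of 200 log2 changes of the members under these 4 alternatives, 171 stayed within the counting interval, 29 moved beyond it, and 0 called changes reversed. The sign changed in 4: with median ratio scaling the difference between genotypes with TGFB1 was -0.01 for Col1a1 and -0.00 for Col11a1, and the difference of responses of Col24a1 was 0.08 with a pseudocount of 1 and 0.29 with 0.1. Of the changes 8 moved by over 0.58, all in genes under 1 RPKM. Members of at least 1 RPKM moved by at most 0.14. For genes under 1 RPKM the depth limits what can be seen, and the causes of these shifts were not tested.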
